A study of Drosophila melanogaster with 4 samples.

Results

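The genes described here are 9 immediate-early and stress-response genes of Drosophila melanogaster, chosen by name among the 13926 genes of a count table: the activity-regulated transcription factor genes Hr38 and sr, the Jun N-terminal kinase (JNK) pathway genes bsk, Jra, kay, puc and Mmp1, and the stress and death genes Gadd45 and rpr. Polyadenylated RNA of pooled heads was sequenced from D50 (day 50) male flies in 4 libraries. NelfA*/+ flies (2 libraries) carry the KG09483 P-element insertion in a single copy of Nelf-A on the third chromosome. Their control siblings (+/+, 2 libraries) carry none, and both came from the same backcross to w1118 males and were raised on the same food at the same temperature. The mutation is present in every cell of the fly, and whole heads hold neurons, glia, eye, fat body, muscle and blood cells together. As the study had it, the libraries address which transcripts differ in heads with less NELF-A.

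Immediate-early genes are transcribed within minutes of a stimulus without new protein synthesis, and many of them hold RNA polymerase II paused near the start site, a state that the NELF complex stabilises. In the JNK cascade a stress signal passes through kinases to Basket (bsk, the fly JNK), which phosphorylates Jra (the fly Jun), and Jra with Kayak (kay, the fly Fos) forms the dimer AP-1 that activates target genes. In flies the cascade is known for its roles in wound closure, stress tolerance and cell death. Among its targets is puc, whose phosphatase product switches Basket off again, so that puc transcript is often taken as a readout of the pathway.

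Total counts on genes lay between 42985746 and 45172099 per library. Nelf-A itself, the check of the labels, had 2392 ± 8.42 normalized counts in NelfA*/+ heads and 3482 ± 165 in control siblings (SD, n = 2 each). This was 68.7% of the control level, with an adjusted p of 0.0411 in edgeR's quasi-likelihood test, which did not pass without control replicate 1 (0.259) or 2 (0.145). The libraries held transcripts of the cell types of a head, although defining markers such as Syx1A (neurons), alrm and moody (glia) and Arr2 (photoreceptors) were listed at 0 in every library. The same held for 1724 of 1730 coding genes that lie wholly inside another, so a 0 here is not read as an absent transcript. The neuronal marker elav, named after its values were seen, had 8 and 6 reads in NelfA*/+ heads and 0 and 0 in control siblings. It was below the filter on low counts, and no difference between the genotypes is read from it. Summed normalized counts of the 5 neuronal markers were 150204 and 168296 in NelfA*/+ heads, against 156525 and 114831 in control siblings, so that control replicate 2 was the lowest. Midgut markers differed in both directions, and those given here were named after their values were seen. The protease gene Jon65Aiii had 3283 and 1546 raw counts in NelfA*/+ heads, against 4 and 4 in control siblings, and was called higher by edgeR. The amylase gene Amy-d had 11501 and 10345 in NelfA*/+ heads, against 24110 and 20964 in control siblings, and was called lower (log2 fold change -0.99, edgeR adjusted p = 0.0362).

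All 9 genes are annotated as protein-coding and had reads in every library. In the BDGP6 assembly, Hr38 (FBgn0014859) lies on 2L from 20683462 to 20714588 on the reverse strand, and bsk (FBgn0000229) on 2L from 10247502 to 10250501, also on the reverse strand. On 3R, the arm of Nelf-A, lie sr (FBgn0003499; 18090803 to 18135583), kay (FBgn0001297; 29765995 to 29794113) and puc (FBgn0243512; 8105332 to 8122294), all on the forward strand. Their distances from Nelf-A are 3.09 Mb for sr, 8.54 Mb for kay and 13.1 Mb for puc. Jra (FBgn0001291; 10096480 to 10098556, forward), Gadd45 (FBgn0033153; 7249161 to 7250655, forward) and Mmp1 (FBgn0035049; 24671294 to 24688184, reverse) lie on 2R, and rpr (FBgn0011706; 18397535 to 18398435, reverse) on 3L. Other coding genes overlap 5.87% of the exon bases of Mmp1, 2.38% of those of Jra and 2.18% of those of Hr38, and none of those of the other 6 genes. How reads in such stretches were counted is not given in the sources used here, and noncoding genes were not considered.

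Scaled to exon length, counts were higher for the pathway genes and Gadd45 than for sr, Hr38 and rpr. Whether reads in introns are part of the counts is not given in the sources used here, and 1724 of 1730 coding genes that lie wholly inside another were listed at 0 in every library. If introns were counted, levels of genes with long introns are overstated (Hr38 spans 31.1 kb with 7.70 kb of exon, sr 44.8 kb with 8.11 kb, kay 28.1 kb with 7.79 kb), so the order and the ratios between genes hold only as counts over exon length. In control siblings bsk stood highest, with a mean of 63.1 RPKM (reads per kilobase of exon, scaled to library size). It was followed by kay with 40.6, Jra with 37.3, puc with 33.1, Mmp1 with 22.2 and Gadd45 with 15.3. At the low end were sr with 3.13, Hr38 with 2.71 and rpr with 2.52. Of the neighbours in this order, only Hr38 (2.49 and 2.93) and rpr (2.07 and 2.97) overlapped between control libraries. In NelfA*/+ heads the order was the same with a single exception: Hr38, with a mean of 5.60, stood above sr with 3.74, and no neighbours overlapped, although sr replicate 2 (3.29) and rpr (3.25 and 3.26) came close.

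**Figure D1:**
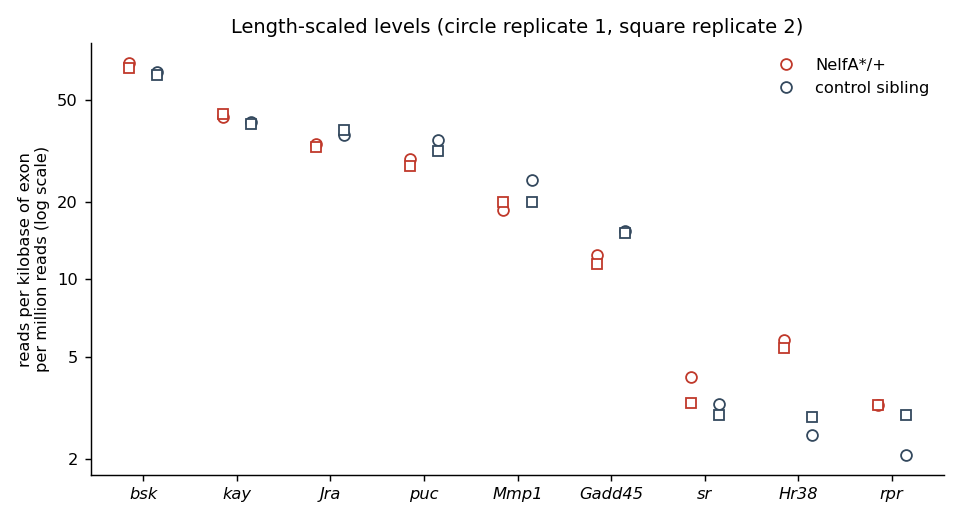
RPKM (reads per kilobase of exon, scaled to library size; log axis) of the 9 genes in each library, NelfA*/+ (red) left of control siblings (dark), ordered by the control mean; circles are replicate 1 and squares replicate 2. The levels span from 63.1 for bsk to 2.52 for rpr as control means, and Hr38 is the gene whose genotypes stand farthest apart.

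Compared between the genotypes, 1 of the 9 genes was called: Hr38, which was about 2-fold higher in NelfA*/+ heads. In edgeR's quasi-likelihood test (Benjamini-Hochberg adjustment over 9609 genes, threshold 0.05) it was the only member past the threshold (3 members stood below 0.05 before adjustment, as did 20.3% of all genes tested), and no member was called lower, where 0.645% of all genes tested were called higher and 1.23% lower. In DESeq2's Wald test, which called 4.16% of its 10144 genes higher and 4.82% lower, Hr38 was again the only member called. A member not called may still differ, as the unadjusted 95% intervals of Gadd45 (-0.54 to -0.16) and puc (-0.43 to -0.017) excluded 0. All 9 passed the filter on low counts. Their log2 fold changes (NelfA*/+ over control sibling) ran from -0.35 for Gadd45 to 1.05 for Hr38, with a median of 0.099 beside 0.011 over all genes tested. In 5 genes (Hr38, sr, kay, bsk and rpr) the lowest NelfA*/+ library exceeded the highest control library, and in 3 (Jra, puc and Gadd45) the highest NelfA*/+ library was under the lowest control library. Over all genes tested these shares were 26.1% and 26.0%, so that separation of the libraries alone was common.

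**Figure D2:**
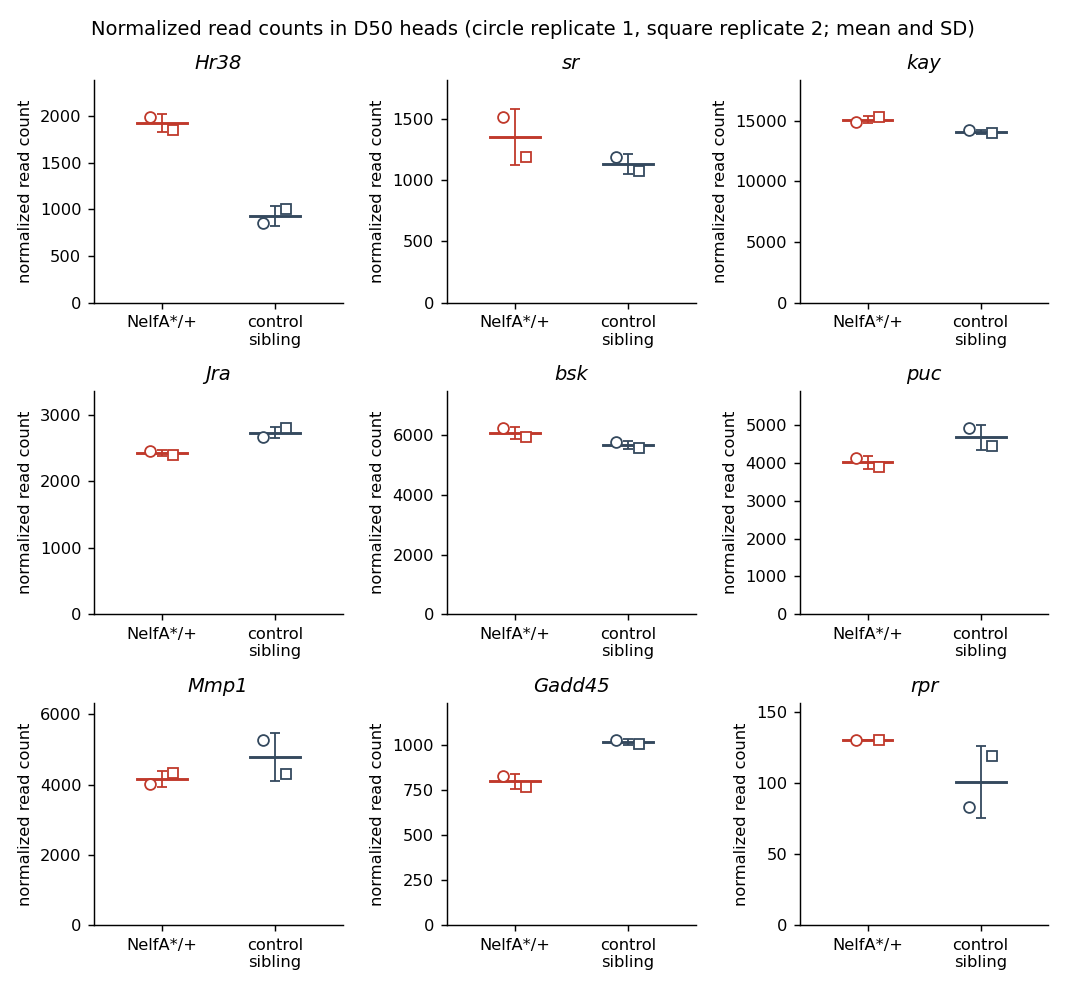
Normalized read counts of the 9 genes in NelfA*/+ heads (red, left) and control siblings (dark, right), with circles for replicate 1, squares for replicate 2, bars for the mean and whiskers for the SD (n = 2). In Hr38 the NelfA*/+ libraries, at 1988 and 1854, stand well above the control libraries at 855.4 and 1004, while in the other genes the genotypes are close or overlap.

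**Figure D3:**
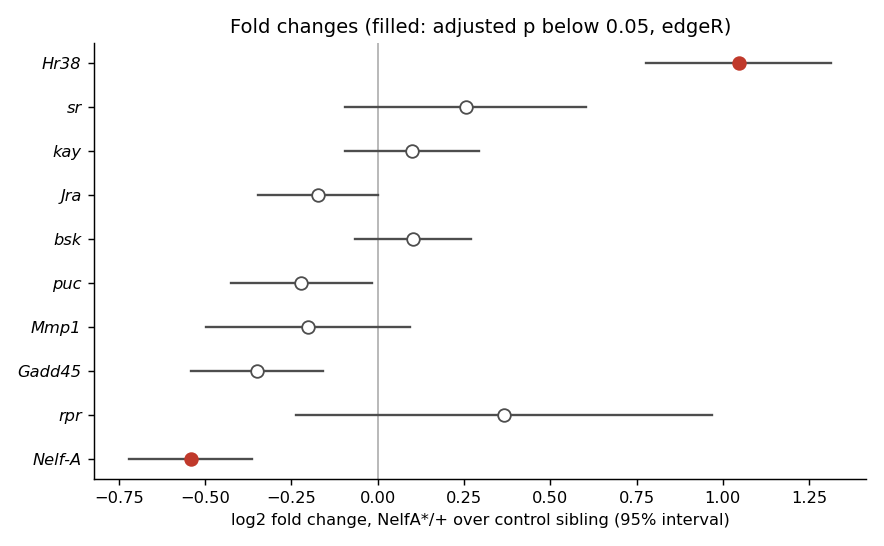
Log2 fold change of each gene (NelfA*/+ over control sibling) with its 95% interval from edgeR's fit; filled points have an adjusted p below 0.05. Of the 9 genes only Hr38, at 1.05, is filled, and Nelf-A is shown at -0.54 for comparison.

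Hr38 encodes the single fly member of the NR4A family of orphan nuclear receptors, and its transcript is induced by neuronal firing. It had 1988 and 1854 normalized counts in NelfA*/+ replicates 1 and 2, against 855.4 and 1004 in control siblings. The lowest NelfA*/+ library was 1.85 times the highest control library. The means were 1921 ± 95.3 in NelfA*/+ heads and 929.9 ± 105 in control siblings (SD, n = 2 each), 2.07-fold apart. On the log2 scale the difference was 1.05 (standard error 0.10, 95% interval 0.78 to 1.31, edgeR adjusted p = 0.0256, DESeq2 adjusted p = 8.8e-12). It was larger than those between replicates, whose log2 ratio (replicate 2 over replicate 1) was -0.10 in NelfA*/+ heads and 0.23 in control siblings. Since these are whole heads, more RNA per cell and more cells that hold it cannot be told apart.

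With a library left out, the genotype reduced to a single library is assumed to vary like the other, and the number of genes called in all differed widely from the 180 called with every library. Without NelfA*/+ replicate 1 the log2 fold change of Hr38 was 0.995 (edgeR adjusted p = 0.00334, with 412 genes called in all), and without NelfA*/+ replicate 2 it was 1.10 (edgeR adjusted p = 0.000858, with 554 genes called). Without control replicate 1 it was 0.93 (edgeR adjusted p = 0.152) and without control replicate 2 it was 1.17 (edgeR adjusted p = 0.0994), neither past the threshold, and 2 genes in all were called in each of these fits. Thus Hr38 kept its direction in all 4 fits and its call in 2. The part of midgut transcripts, which both NelfA*/+ libraries held, in its values was not tested. Over the 13 alternatives tried the adjusted p of Hr38 ranged from 8.8e-12 to 0.152, with the highest value among the 9 that kept every library at 0.0415.

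The stripe gene sr encodes a zinc-finger factor of the Egr family, known in flies for tendon cell fate and, like Hr38, as an immediate-early gene of stimulated neurons. Its normalized counts were 1514 and 1191 in NelfA*/+ replicates 1 and 2, against 1190 and 1076 in control siblings. Only NelfA*/+ replicate 1 stood apart, and NelfA*/+ replicate 2 lay next to control replicate 1. The means were 1352 ± 228 in NelfA*/+ heads and 1133 ± 80.7 in control siblings (SD, n = 2 each), with a log2 fold change of 0.26 (95% interval -0.094 to 0.60, edgeR adjusted p = 0.373). Without NelfA*/+ replicate 1 the log2 fold change was 0.072, and without NelfA*/+ replicate 2 it was 0.42. An increase of up to 0.60 on the log2 scale is thus within the interval for sr. In reads per kilobase Hr38 stood at 1.38 and 1.64 times the level of sr in NelfA*/+ libraries, against 0.757 and 0.983 times in control libraries.

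A list of 8 further genes known as induced by neuronal activity was examined beside Hr38 and sr. Of these, cbt and CG30497 were listed at 0 in every library and 6 were tested. None passed in edgeR's quasi-likelihood test over all genes, and 5 stood below 0.05 before adjustment, against 20.3% of all genes tested. DESeq2 called 3 higher and 1 lower, where it called 4.16% of its genes higher and 4.82% lower. Positive log2 fold changes were found in 5 of the 6, with a list median of 0.38 beside 0.011 over all genes tested. All 5 had both NelfA*/+ libraries above both control libraries, as did 26.1% of all genes tested. The list was written with earlier results of these data known.

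CG14186 (3L) had 9888 and 8126 normalized counts in NelfA*/+ heads, against 4581 and 6127 in control siblings. Its log2 fold change was 0.75 (standard error 0.17, edgeR adjusted p = 0.110, DESeq2 adjusted p = 0.00126). CG17778 (X) had 1693 and 1616 in NelfA*/+ heads, against 1066 and 1234 in control siblings, a log2 fold change of 0.52 (standard error 0.096, edgeR adjusted p = 0.0739, DESeq2 adjusted p = 0.00180). In both genes the libraries of the genotypes did not overlap, and CG14186 varied more between replicates. CG8910 (2R) had 2520 and 2704 in NelfA*/+ heads, against 1844 and 2019 in control siblings, a log2 fold change of 0.44 (edgeR adjusted p = 0.0787, DESeq2 adjusted p = 0.00308). CG13868 (2R) went the other way, with 27544 and 28301 normalized counts in NelfA*/+ heads, against 41839 and 38444 in control siblings. Its log2 fold change was -0.52 (edgeR adjusted p = 0.0768, DESeq2 adjusted p = 1.8e-06). Taking Hr38, sr and the 6 listed genes, NelfA*/+ replicate 1 was the highest library in 6 of the 8 and control replicate 1 the lowest in 5. The shares of all genes tested with these orders were not counted, so no common pattern is read from them. Summed neuronal markers were instead lowest in control replicate 2. The 3 neuronal markers tested had log2 fold changes above 0, with a median of 0.14, and edgeR called none. DESeq2, which called 4.16% of its genes higher, called nSyb higher (DESeq2 adjusted p = 0.0491). The genotypes overlapped in the others, Syt1 and brp. All 3 are named after their values were seen. The part of neuronal markers in the values of these genes was not tested.

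**Figure D4:**
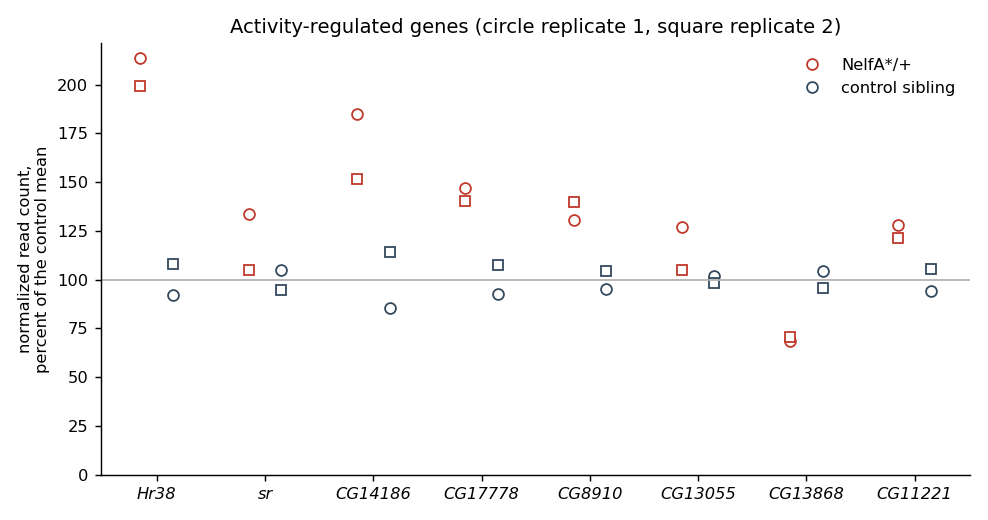
Normalized read counts of Hr38, sr and the 6 tested genes of the activity-regulated list, as a percentage of the control mean of each gene, in NelfA*/+ libraries (red) and control libraries (dark); circles are replicate 1 and squares replicate 2. The mean of NelfA*/+ heads lies above that of control siblings in 7 of the 8 genes, farthest in Hr38, and below it in CG13868. The list was written with earlier results of these data known.

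The genes whose pattern over the 4 libraries lay nearest to that of Hr38 were CG5835 (3R), CG17777 (X) and CG14662 (3R). The root mean square difference of their centred log2 normalized counts from those of Hr38 was 0.042, 0.068 and 0.071, and 7 of the genes tested lay within 0.1. CG5835 had 1729 and 1611 normalized counts in NelfA*/+ heads, against 746.1 and 817.1 in control siblings, a log2 fold change of 1.10 (edgeR adjusted p = 0.0157). CG17777 had 728.5 and 667.0 in NelfA*/+ heads, against 348.0 and 373.5 in control siblings, a log2 fold change of 0.95 (edgeR adjusted p = 0.0282). CG14662 was low, with 36 and 34 raw counts in NelfA*/+ heads, against 14 and 18 in control siblings, and did not pass (edgeR adjusted p = 0.163). These genes were picked for their likeness to Hr38, so log2 fold changes near its own follow from the choice and are no separate result. With 4 libraries this likeness is a description only.

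The inputs to immediate-early genes, through the ERK kinase cascade and calcium and CREB signalling, held no gene called by edgeR. Of 23 listed genes 21 were tested (S6kII and usp were listed at 0), with 13 log2 fold changes above 0 and 8 below, a median of 0.064, and 20 of them smaller than 0.3 in size. In edgeR's test 2 of 21 stood below 0.05 before adjustment (20.3% of all genes tested). DESeq2, which called 4.82% of its genes lower, called 1, lower. That gene was the EGF receptor gene Egfr, with 4869 and 4377 raw counts in NelfA*/+ heads, against 5645 and 6245 in control siblings, and a log2 fold change of -0.31 (edgeR adjusted p = 0.105, DESeq2 adjusted p = 0.0167). The next smallest p-values belonged to CanB (calcineurin B, log2 fold change 0.22), CanA1 (calcineurin A, 0.20) and Dsor1 (the fly MEK, 0.17), with edgeR adjusted p of 0.186 to 0.315.

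Within the JNK cascade the kinase gene bsk had 6239 and 5947 normalized counts in NelfA*/+ heads, against 5769 and 5580 in control siblings. The libraries of the genotypes lay close together, with 1.03 between the lowest NelfA*/+ and the highest control library as a ratio. Its log2 fold change was 0.10 (95% interval -0.064 to 0.27, edgeR adjusted p = 0.454). A change of more than 0.27 on the log2 scale in either direction lies outside that interval.

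The AP-1 partners kay and Jra differed in opposite directions, neither past the threshold. Normalized counts of kay were 14895 and 15308 in NelfA*/+ heads, against 14219 and 13985 in control siblings. Its log2 fold change was 0.099 (95% interval -0.095 to 0.29, edgeR adjusted p = 0.532). Those of Jra were 2456 and 2388 in NelfA*/+ heads, against 2670 and 2794 in control siblings. Its log2 fold change was -0.17 (95% interval -0.35 to 0.00013, edgeR adjusted p = 0.246). The replicates of each genotype were tight in both genes, and the genotypes did not overlap. In reads per kilobase, kay stood at 1.28 and 1.35 times the level of Jra in NelfA*/+ libraries, against 1.12 and 1.06 times in control libraries.

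The phosphatase gene puc had 4137 and 3898 normalized counts in NelfA*/+ heads, against 4917 and 4450 in control siblings. Both NelfA*/+ libraries were lower than both control libraries, by a margin smaller than that between the control replicates. The means were 4017 ± 169 in NelfA*/+ heads and 4684 ± 330 in control siblings (SD, n = 2 each), or 85.8% of the control level. The log2 fold change was -0.22 (standard error 0.079, 95% interval -0.43 to -0.017), with an unadjusted p of 0.0386 and an adjusted p of 0.221 in edgeR's test and of 0.257 in DESeq2's. Relative to bsk in reads per kilobase, puc stood at 0.422 and 0.417 in NelfA*/+ libraries, against 0.542 and 0.508 in control libraries. Within a root mean square log2 difference of 0.1 from puc lay 1435 of the genes tested. The libraries of puc differed little, so this limit also takes in genes that hardly differ between libraries. The number is not comparable with the 7 of Hr38. The nearest were bur, Pp1alpha-96A and CG13631, with edgeR adjusted p of 0.213 to 0.289. Their log2 fold changes, between -0.24 and -0.21, are close to that of puc through this choice.

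Upstream of bsk, a list of 22 genes from the TNF ligand egr and its receptors grnd and wgn to the kinases Tak1, slpr and hep was tested in full. The log2 fold changes were above 0 in 11 and below in 11, with a median of -0.0023, and all 22 were smaller than 0.3 in size. None passed in edgeR's test, and 1 of 22 stood below 0.05 before adjustment (20.3% of all genes tested). DESeq2, which called 4.16% of its genes higher, called 1, higher. That gene was wnd, a mixed-lineage kinase gene known for axon injury signalling, with 4736 and 4556 raw counts in NelfA*/+ heads, against 4047 and 4032 in control siblings. Its log2 fold change was 0.26 (edgeR adjusted p = 0.118, DESeq2 adjusted p = 0.0456). Mekk1, Src64B and Traf4 had log2 fold changes of -0.15, 0.20 and 0.20 (edgeR adjusted p of 0.273 to 0.314). The ligand gene egr had 1840 and 2121 raw counts in NelfA*/+ heads, against 2299 and 2104 in control siblings, and the genotypes overlapped. It was named after its values were seen.

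Of the parallel p38 stress kinase branch, all 7 listed genes were tested. None passed in edgeR's test, none stood below 0.05 before adjustment and DESeq2 called 0, with a median log2 fold change of 0.073. The largest in size was that of p38c, 0.44 (edgeR adjusted p = 0.265), with 132 and 145 raw counts in NelfA*/+ heads, against 106 and 107 in control siblings. Mef2 and lic had log2 fold changes of 0.086 and 0.095.

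Mmp1, a matrix metalloproteinase gene activated by JNK and AP-1 in wounded and remodelled tissue, had 4007 and 4322 normalized counts in NelfA*/+ heads, against 5275 and 4308 in control siblings. The genotypes overlapped, and control replicate 1 alone was high. The means were 4164 ± 223 in NelfA*/+ heads and 4792 ± 684 in control siblings (SD, n = 2 each), with a log2 fold change of -0.20 (95% interval -0.50 to 0.094, edgeR adjusted p = 0.404). Without control replicate 1 it was -0.052.

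The 18 other listed AP-1 partners and JNK response genes were divided in direction. Of these 15 were tested, since Timp and Irbp18 were listed at 0 and upd1 was below the filter. Log2 fold changes were above 0 in 7 and below in 8, with a median of -0.0011. None passed in edgeR's test, 2 of 15 stood below 0.05 before adjustment (20.3% of all genes tested), and DESeq2 called 0. The largest difference was in upd3, a cytokine gene of the JAK/STAT pathway that JNK induces in damaged tissue. It had 17 and 20 raw counts in NelfA*/+ heads, against 51 and 55 in control siblings, a log2 fold change of -1.45 (standard error 0.31, edgeR adjusted p = 0.0947, DESeq2 adjusted p = 0.0507). The replicates of upd3 agreed within each genotype, but its counts were low. Pvr, mol and Atf3 followed with log2 fold changes of -0.19, 0.23 and 0.15 (edgeR adjusted p of 0.197 to 0.498). Ilp8, an insulin-like peptide gene known as a damage signal in larvae, had 22 and 34 raw counts in NelfA*/+ heads, against 34 and 24 in control siblings, and was named after its values were seen.

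Beside these JNK response genes stand the blood cell markers, of which 1 of 6 had a log2 fold change above 0 (median -0.28). In edgeR's test none of them was called. DESeq2's Wald test, which called 4.82% of its genes lower, called srp lower. The marker above 0 was Pxn (log2 fold change 0.29, edgeR adjusted p = 0.176). Both are named here after their values were seen. Summed normalized counts of the 6 markers were 12752 and 15808 in NelfA*/+ heads, against 16466 and 14284 in control siblings. Their part in the values of Mmp1 and upd3 was not tested.

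Gadd45, a stress-induced gene whose mammalian relatives activate a kinase upstream of JNK and p38, had 827.0 and 767.4 normalized counts in NelfA*/+ heads, against 1028 and 1005 in control siblings. Both NelfA*/+ libraries were below both control libraries, and the lowest control library was 1.22 times the highest NelfA*/+ library. The means were 797.2 ± 42.1 in NelfA*/+ heads and 1017 ± 16.1 in control siblings (SD, n = 2 each), or 78.4% of the control level. The log2 fold change was -0.35 (standard error 0.074, 95% interval -0.54 to -0.16). With an unadjusted p of 0.00527 and an adjusted p of 0.0947 in edgeR's test, and an adjusted p of 0.0621 in DESeq2's Wald test, it did not pass the threshold. Among the members its p was second to that of Hr38. Over the 13 alternatives its log2 fold change stayed between -0.41 and -0.30, and its adjusted p lay between 0.0621 and 0.310.

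The reaper gene rpr, whose small protein blocks the inhibitors of apoptosis and which is a target of p53 and JNK, was the least abundant of the 9. Its raw counts were 131 and 125 in NelfA*/+ heads, against 83 and 124 in control siblings. Control replicate 1 alone was low. From counting error alone, the 95% exact Poisson intervals were 66.1 to 103 for control replicate 1 and 103 to 148 for control replicate 2. This gave a log2 fold change of 0.37 (95% interval -0.24 to 0.97, edgeR adjusted p = 0.457). Without control replicate 1 it was 0.13, and without control replicate 2 it was 0.65. With these libraries neither a near 2-fold rise nor a small fall of rpr lies outside the interval.

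Of the other death genes, 18 were listed and 16 tested. Tango7 did not match a name in the count table and Dcp-1 was listed at 0. They had 11 log2 fold changes above 0 and 5 below, with a median of 0.056. None passed in edgeR's test, and 5 of 16 stood below 0.05 before adjustment (20.3% of all genes tested). DESeq2, which called 4.16% of its genes higher, called 2 higher, the caspase genes Decay and Damm. Genes that encode proteins of the same kind as that of rpr differed in direction. The log2 fold changes were 0.38 for skl and 0.25 for hid, with adjusted p of 0.207 and 0.164 in edgeR's test. That of grim, named after its values were seen, was -0.28 (edgeR adjusted p = 0.348).

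Decay had 382 and 117 raw counts in NelfA*/+ replicates 1 and 2, against 13 and 20 in control siblings, a log2 fold change of 3.95 (standard error 0.66, edgeR adjusted p = 0.0637, DESeq2 adjusted p = 2.8e-08). Damm had 169 and 27 in NelfA*/+ replicates 1 and 2, against 10 and 17 in control siblings, a log2 fold change of 2.89 (standard error 0.93, edgeR adjusted p = 0.189, DESeq2 adjusted p = 0.0174). Both were far higher in NelfA*/+ replicate 1 than in any other library, and without that library their log2 fold changes were 2.91 (edgeR adjusted p = 0.00584) and 1.09 (0.519). Without NelfA*/+ replicate 2 instead they were 4.54 (edgeR adjusted p = 2.1e-05) and 3.66 (0.00076). Midgut markers also differed between the genotypes. Of 16 listed, 9 were tested, and gammaTry was listed at 0 in every library. Log2 fold changes were above 0 in 7 of the 9. Some of these were near 0 in control siblings and passed the filter on low counts only through NelfA*/+ libraries. That number is therefore not read as a result. The summed normalized counts of all 16 were 58609 and 30764 in NelfA*/+ replicates 1 and 2, against 45571 and 38169 in control siblings, with those of control siblings almost all from the amylase genes Amy-p and Amy-d, whose log2 fold changes were -0.38 and -0.99 (edgeR adjusted p = 0.209 and 0.0362). The trypsin gene alphaTry, named after its values were seen, had 7540 and 511 raw counts in NelfA*/+ replicates 1 and 2, against 6 and 12 in control siblings. The part of midgut transcripts in the values of Decay and Damm was not tested.

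Of 16 genes of p53 and the DNA damage response, 15 were tested, with Corp listed at 0. Log2 fold changes above 0 were seen in 5 and below in 10, with a median of -0.050. In edgeR's test 3 of 15 stood below 0.05 before adjustment (20.3% of all genes tested). A single gene passed after adjustment, lower, where edgeR called 1.23% of all genes tested lower. The same gene was the only call of DESeq2's Wald test, which called 4.82% of its genes lower. This was Ku80, which encodes a subunit of the DNA end-binding Ku complex of non-homologous end joining. Ku80 (FBgn0041627; 2L, 15768630 to 15771159) had 629 and 570 raw counts in NelfA*/+ heads, against 917 and 901 in control siblings. The normalized means were 611.0 ± 21.2 in NelfA*/+ heads and 892.3 ± 38.6 in control siblings (SD, n = 2 each), a log2 fold change of -0.55 (standard error 0.076, edgeR adjusted p = 0.0481, DESeq2 adjusted p = 0.00146). Its adjusted p stood just under the threshold, and did not pass in limma-voom (0.0630), without the filter on low counts (0.0707 in edgeR's test) or without control replicate 1 (0.273) or 2 (0.186).

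Other repair and checkpoint genes did not pass. The end-processing nuclease gene mre11 had 525 and 485 raw counts in NelfA*/+ heads, against 650 and 695 in control siblings, a log2 fold change of -0.36 (edgeR adjusted p = 0.103). The polymerase gene mus205 had a log2 fold change of -0.22 (edgeR adjusted p = 0.231) and lok, the fly Chk2 gene, one of 0.35 (adjusted p = 0.282). The Ku80 partner gene Irbp (-0.022) and p53 itself (-0.050), both named after their values were seen, had adjusted p of 0.932 and 0.802 in edgeR's test.

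**Figure D5:**
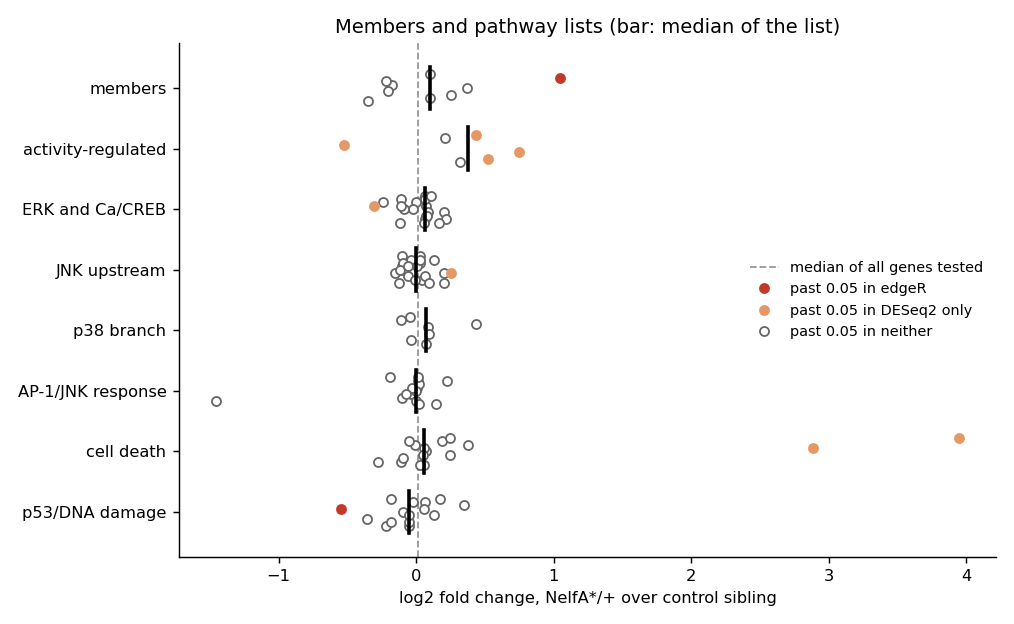
Log2 fold changes (NelfA*/+ over control sibling) of the 9 genes and of the tested genes of each pathway list, with a bar at the median of each list and a dashed line at the median of all genes tested, 0.011. The activity-regulated list has the highest median, 0.38, and Hr38 and Ku80 are the points past 0.05 in edgeR's test. The lists were written with earlier results of these data known.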

How the data were processed

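RNA-seq reads of 4 D50 head libraries were trimmed by the authors with Trim Galore, aligned to BDGP6 with STAR 2.5 and counted per gene with HTSeq-count, and the raw counts were deposited without normalization. The strand and overlap settings are not given in the sources used here. The deposited table of the authors' own DESeq2 comparison (fold changes and p-values) was not used. HTSeq-count's summary lines were left out of library sizes. Reads lying on more than a single gene were between 8.02% and 8.53% of uniquely aligned reads, and 2463 of the 13926 genes were listed at 0 in every library, among them 1724 of 1730 coding genes that lie wholly inside another coding gene. Genotypes were taken from the sample titles.

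Counts were compared with edgeR 4.0.16 in R 4.3.3 (filterByExpr, TMM, glmQLFit, glmQLFTest; Benjamini-Hochberg over 9609 genes, threshold 0.05). Normalized counts were obtained by dividing each count by its library's TMM effective size and multiplying by the mean effective size. Standard errors and 95% intervals were taken from the F statistic. Levels per length used merged exons of the Ensembl annotation of BDGP6, which is a later release than that of the counts. The alternatives were DESeq2 1.42.0, limma-voom (limma 3.58.1), other normalizations, filters and dispersions, the replicate number as a block, and leaving out each library. The steps were tested on simulated counts. Replicates of a genotype differed by more than counting error (chi-square per degree of freedom 58.2 and 73.5). Nothing says how far the pools of a genotype were raised apart, so p-values measure the spread between these libraries.

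The members, the gene lists and the cell type markers were chosen with earlier results of these data known, and the lists were written from general knowledge, with no annotation database. Genes are named by a fixed rule: the members, Nelf-A, up to 4 genes of each list (those past 0.05 in edgeR, then in DESeq2, then the smallest p in edgeR), and the 3 genes nearest in pattern to Hr38 and to puc. Others are said to be named after their values were seen. A single further gene picked by the rule is not reported here.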

Additional observations from a re-analysis of the deposited data

How the results depend on the processing

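Among the 9 genes, Hr38 was the only call under all 9 alternatives that kept every library, and its calls were between 0 and 1 when a library was left out. No alternative turned the direction of a member. The count over all genes was less stable. Beside 180 genes called, DESeq2's Wald test called 911, robust dispersions 359, limma-voom 118 and no filter on low counts 82, and between 2 and 554 were called with a library left out. In the pathway lists, where Ku80 was the only call, DESeq2's Wald test called 9 genes, robust dispersions 3, library size alone 2, and limma-voom and no filter on low counts 0 each (0 to 5 with a library left out). The pathway lists together held 101 tested genes. Over all genes tested, edgeR called 0.645% higher and 1.23% lower, and DESeq2's Wald test 4.16% higher and 4.82% lower. Whether calls were more common in the lists than among all genes was not tested. With the replicate number as a block edgeR called 297 genes, 1 member and 2 list genes. The correlation between deviations of libraries that share a number was -0.13 over 8398 genes, so that crossed pairs were also fitted, an alternative chosen after seeing the data: 797 genes, 1 member and 8 list genes were called. Nelf-A (log2 fold change -0.54 in both) no longer passed with the replicate block or without the filter, and lay between -0.59 and -0.50 with a library left out. Of 494 values for 38 named genes under the 13 alternatives, 460 kept their direction and their side of the threshold, 24 passed it newly and 10 no longer did. With 2 libraries a genotype, intervals reached 0.60 on the log2 scale for sr and 0.97 for rpr.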
